A study of Mus musculus with 9 samples.

Results

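Claudin, occludin, zonula occludens and connexin genes, whose products build the tight and gap junctions of epithelial and endothelial sheets, were described in the RNA of lung cells from female C57BL/6J mice. The members were all protein-coding genes of the deposited table whose symbol names a numbered claudin (Cldn), a zonula occludens protein (Tjp), Ocln or a connexin of the a, b or c class (Gja, Gjb, Gjc), without Cldn5 and Cldn18. The rule used names alone and took 41 of 55851 genes: 21 claudins, 16 connexins, 3 zonula occludens genes and occludin. The data were 9 RNA sequencing libraries in 3 groups of 3. WT PBS (replicates 1, 2 and 3) were wild-type mice given phosphate-buffered saline. WT OVA (replicates 5, 6 and 9) were wild-type mice given ovalbumin, an egg protein used to model allergic airway inflammation. DJ-1 KO OVA (DJ1_KO_OVA_263, DJ1_KO_OVA_266 and DJ1_KO_OVA_267) were DJ-1 knockout mice given the same ovalbumin challenge. The time label was 7 weeks throughout. No knockout group given saline was among the samples, the labels do not describe the knockout allele, and they do not say whether a library is 1 animal, so p-values measure the spread between libraries, which may be technical.

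Claudins are membrane proteins that pair across the gap between neighbouring cells and line up into tight junction strands; some seal the space and others leave a pore that passes particular ions or water. Occludin sits in the same strands, and the zonula occludens proteins, encoded by the Tjp genes, tie the strands to the actin skeleton inside the cell. Connexins assemble into rings in the membrane, and rings of adjoining cells dock into gap junction channels through which ions and small molecules pass. In the lung these genes are known from the airway and alveolar epithelium, where Cldn3, Cldn4, Cldn7 and Cldn18 prevail, and from vessels, where Cldn5, Gja4 and Gja5 mark the endothelium.

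Several members lie next to each other in the genome, and the results below turn on some of these neighbours. On chromosome 5 of GRCm38, Cldn13, Cldn4 and Cldn3 lie within 73.22 kb. On chromosome 14, Gja3, Gjb2 and Gjb6 lie within 99.15 kb. Cldn3 (chromosome 5, 134986214 to 134987472, plus strand) and Cldn8 (chromosome 16, 88560828 to 88563183, minus strand) are each as long in the genome as in their transcript, 1259 and 2356 bases, as an unspliced gene is. Cldn1 (chromosome 16, 26356642 to 26371841), Gjb2 (chromosome 14, 57098600 to 57104702) and Gjb6 (chromosome 14, 57123303 to 57133611) are all on the minus strand.

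The 250 bases before the start of transcription are shown for 4 of the members that differed between the ovalbumin groups and for Cldn4, the neighbour of Cldn3, because these are the regulatory sequences nearest to the measured RNAs. They are RefSeq promoters of GRCm38.p6, read 5′ to 3′ on the strand of the gene. Capitals mark the GC box GGGCGG or its complement CCGCCC, the motif of Sp factors, and the E2 box CACCTG or its complement CAGGTG, the motif of Snail and Zeb repressors. Cldn8, also among the members that differed, has no promoter printed here. The windows are chr5:134985964-134986213 (plus strand) for Cldn3, chr5:134946935-134947184 (minus) for Cldn4, chr14:57104703-57104952 (minus) for Gjb2, chr14:57133612-57133861 (minus) for Gjb6 and chr16:26371840-26372089 (minus) for Cldn1.
Cldn3: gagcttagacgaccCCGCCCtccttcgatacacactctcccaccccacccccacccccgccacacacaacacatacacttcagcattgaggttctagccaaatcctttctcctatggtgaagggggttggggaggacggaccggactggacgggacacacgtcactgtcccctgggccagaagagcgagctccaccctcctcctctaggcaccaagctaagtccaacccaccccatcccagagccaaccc
Cldn4: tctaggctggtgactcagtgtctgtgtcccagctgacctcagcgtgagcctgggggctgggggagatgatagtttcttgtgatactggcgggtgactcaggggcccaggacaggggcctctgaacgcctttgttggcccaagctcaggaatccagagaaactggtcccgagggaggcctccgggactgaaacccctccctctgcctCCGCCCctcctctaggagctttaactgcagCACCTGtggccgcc
Gjb2: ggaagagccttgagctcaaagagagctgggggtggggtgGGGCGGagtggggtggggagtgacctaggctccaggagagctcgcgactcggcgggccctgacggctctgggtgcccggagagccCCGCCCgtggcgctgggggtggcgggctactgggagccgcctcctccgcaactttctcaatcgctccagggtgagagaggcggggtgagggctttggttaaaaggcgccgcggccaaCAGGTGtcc
Gjb6: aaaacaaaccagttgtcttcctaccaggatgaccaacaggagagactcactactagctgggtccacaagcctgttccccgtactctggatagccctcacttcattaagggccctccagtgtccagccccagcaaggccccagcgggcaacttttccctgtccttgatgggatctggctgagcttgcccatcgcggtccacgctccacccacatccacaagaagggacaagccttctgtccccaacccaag
Cldn1: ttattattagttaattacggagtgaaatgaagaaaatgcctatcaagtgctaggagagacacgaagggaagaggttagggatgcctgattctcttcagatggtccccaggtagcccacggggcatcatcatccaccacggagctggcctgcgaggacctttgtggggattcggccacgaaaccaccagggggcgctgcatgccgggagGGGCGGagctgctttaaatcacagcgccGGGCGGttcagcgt

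In these windows Cldn3, Cldn4, Gjb2 and Cldn1 hold a GC box and Cldn4 and Gjb2 hold an E2 box just before the start, while the Gjb6 window holds neither. A RefSeq promoter was found for 31 of the 41 members, among them 21 of the 28 members that passed the filter on low values described below. Where several promoters are listed for a gene, as for Cldn7, Cldn10, Cldn12, Gjb1, Ocln and Tjp3, only the one listed first was counted, in the members and in all genes alike. A GC box was present in 9 of these 21 promoters and in 32.94% of the first listed promoters, of the same length, of 27025 genes, and an E2 box in 3 of 21 (Cldn4, Gjb2 and Tjp3) and in 17.1% of all. The motif of STAT6 (TTC and GAA, 4 bases apart), the factor that acts downstream of interleukin-4 and interleukin-13, was in none of these 21 first listed promoters and in 5.865% of all, and the Grainyhead core AACCGGTT was in none and in 0.1221%. TATAAA was found in Cldn2 and Gjb5 and in 12.97% of all promoters, and TGACNNNGC, a core of the antioxidant response element, in Cldn15 and in 10.15%. All 6 motifs were searched on both strands. Promoters listed after the first hold further matches, such as the STAT6 motif in Cldn12 and Ocln, an E2 box in Cldn7, Ocln and Gjb1, and a GC box in Cldn7, Cldn10, Cldn12 and Gjb1. A match is a run of letters, not a measured binding site.

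Depth and genotype were examined first. The libraries held 20812192 to 29080130 reads, recovered from the deposited FPKM (fragments per kilobase of gene, scaled by a size for each library). That size was not the plain read total. It was 0.956 to 1.06 times the recovered reads in WT PBS, 0.890 to 0.979 times in WT OVA and 0.983 to 1.21 times in DJ-1 KO OVA. In each library 12636 to 12983 genes reached 1 FPKM. Park7, which encodes DJ-1, was at 49.6, 53.8 and 36.7 FPKM in WT PBS, at 57.9, 53.1 and 60.5 in WT OVA and at 3.96, 7.29 and 3.98 in DJ-1 KO OVA, so the knockout libraries carried their label. None of 12 epithelial, 9 alveolar type 2, 6 club cell or 10 endothelial marker genes was at 0 in every library. The same held for every list used, cardiomyocyte and Schwann cell markers among them, so this does not tell the tissue. By level, the alveolar type 2 list summed to 10390 to 59800 FPKM and the cardiomyocyte list to 3.22 to 14.2 FPKM. The knockout libraries were not alike in endothelial markers. The summed endothelial list was at 23.3 FPKM in library DJ1_KO_OVA_263, 41.2 in library DJ1_KO_OVA_267 and 102 in library DJ1_KO_OVA_266, against 75.2 to 121 in the 6 wild-type libraries. Depth, lists and libraries of this kind are given again beside the members they move with.

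Of the 41 members, 28 had a mean of at least 0.2 FPKM over the 9 libraries and were tested: 13 claudins, 11 connexins, 3 zonula occludens genes and Ocln. The member just inside that limit was Cldn11, a claudin of myelin and Sertoli cells, at a mean of 0.2001 FPKM, and the member just outside was Cldn6, a claudin of embryonic epithelium, at 0.106 FPKM. The other members below the limit with reads, among them Cldn13, Cldn9, Gja6, Cldn17, Cldn19 and Gjc3, had no library above 0.293 FPKM. Cldn16, Cldn14, Cldn22, Gja10 and Gja3 had 0 reads in all 9 libraries, where 3 reads over the libraries would correspond to 0.00467 to 0.0139 FPKM. Among the members below the limit are Cldn16 and Cldn19, claudins of the kidney tubule, and Gja3, a connexin of the lens.

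In each group 1 member stood above the other members, although Cldn5, which is not a member, exceeded it in library DJ1_KO_OVA_266 at 85.4 FPKM. Cldn3, a sealing claudin of lung epithelium, was at 177, 127 and 125 FPKM in WT PBS, at 176, 232 and 106 in WT OVA and at 61.2, 83.1 and 49.7 in DJ-1 KO OVA. In every group its lowest library was above the highest library of the next member in order, Cldn7 or Cldn4. Below it the order was mostly unresolved: of the tested members in WT PBS, the ranges of neighbours in level were separate only between Cldn3 and Cldn7, Gjb1 and Gjb6, and Gjb6 and Cldn23. Cldn7, a claudin of airway and alveolar epithelium, was second in WT PBS at 24.5 ± 5.83 FPKM (SD, n = 3), and Cldn4, whose barrier role in alveolar epithelium is known from lung injury, was next at 14.4 ± 11.1. The summed FPKM of the 41 members was 253 ± 46.5 (SD) in WT PBS, against 325 ± 99.3 in WT OVA and against 178 ± 23.6 in DJ-1 KO OVA.

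**Figure D1:**
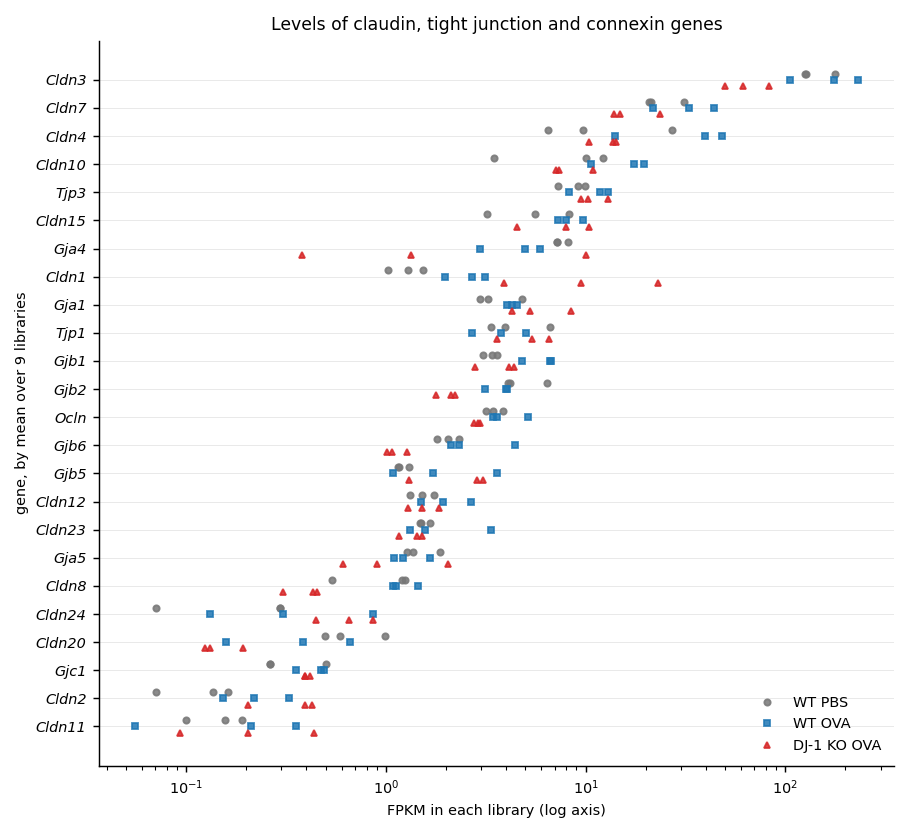
FPKM in each library (log axis) for 24 of the 28 members with a mean of at least 0.2 FPKM, ordered by their mean over 9 libraries; points are libraries, marked by group. Cldn3 lies above all other members plotted in every group, and Gja4 and Cldn1 spread most widely among the 3 knockout libraries.

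Saline and ovalbumin were compared in wild-type lungs to ask whether the challenge altered junction genes. No member passed the test in either direction. Over all 17716 tested genes the limma-trend fit called 0.00564% higher and 0% lower at a Benjamini-Hochberg adjusted p below 0.05, and a limma-voom fit on recovered reads also called no member. At an unadjusted p below 0.05 there were 5 of 28 members, where 6.47% of all genes met that level. Differences were above 0 for 21 members and below 0 for 7, with 50.7% of all genes above 0 and 49.3% below. Their median log2 difference, on the log2(FPKM + 0.5) scale used throughout, was 0.24 against 0.00 for all genes, and 0.03 against -0.22 when the libraries were scaled to equal FPKM sums. Differences moved with gene length here too. The median over all genes was 0.17 in the shortest class (up to 2228 bases), 0.005 in the middle class and -0.10 in the longest (from 4895 bases). Of the 13 members in the shortest class 11 were above 0, and of the 5 in the longest 2 were.

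The members with an unadjusted p below 0.05 all had an adjusted p of 0.729 in limma. Cldn4 was at 27.0, 9.68 and 6.47 FPKM in WT PBS and at 48.4, 39.8 and 14.0 in WT OVA, a log2 difference of 1.29 ± 0.53 (SE), and the groups overlapped. Cldn10, a claudin of club cells, was at 12.2, 10.1 and 3.49 FPKM in WT PBS and at 17.5, 19.6 and 10.7 in WT OVA, a difference of 0.97 ± 0.41, also with overlap. In both genes WT PBS replicate 3 was the lowest of the 3 saline libraries and WT OVA replicate 9 the lowest of the ovalbumin libraries.

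Among connexins, Gjb1 (Cx32, known from liver and from alveolar type 2 cells) was at 3.07, 3.60 and 3.41 FPKM in WT PBS and at 6.68, 6.65 and 4.83 in WT OVA, without overlap. Its difference was 0.75 ± 0.21 (SE). Counted without a test, 3 members had all ovalbumin libraries above all saline libraries, among them Gjb1 and Cldn1, and 3 had them below, among them Gjb2 and Gja4. Over all genes 7.25% lay wholly above and 7.52% wholly below.

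The ovalbumin groups were then compared to ask how junction genes differ with DJ-1 genotype in challenged lungs. Cldn1 was higher in DJ-1 KO OVA than in WT OVA, and Cldn3, Cldn8, Gjb2 and Gjb6 were lower, at an adjusted p below 0.05 in limma. These were 1 of 28 tested members higher, where 5.93% of all genes were called higher, and 4 of 28 lower, where 8.24% were called lower, or 5 in either direction against 14.2%. Of the 13 tested claudins 1 was called higher and 2 lower, of the 11 tested connexins 2 lower, and none of the zonula occludens genes or Ocln was called. At an unadjusted p below 0.05 there were 9 of 28 members, against 35.2% of all genes. Differences were above 0 for 9 members and below 0 for 19, with 50% of all genes on each side. The median difference of the members was -0.24 against 0.00 for all genes, and it changed sign, to 0.21 against 0.46, with equal FPKM sums.

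**Figure D2:**
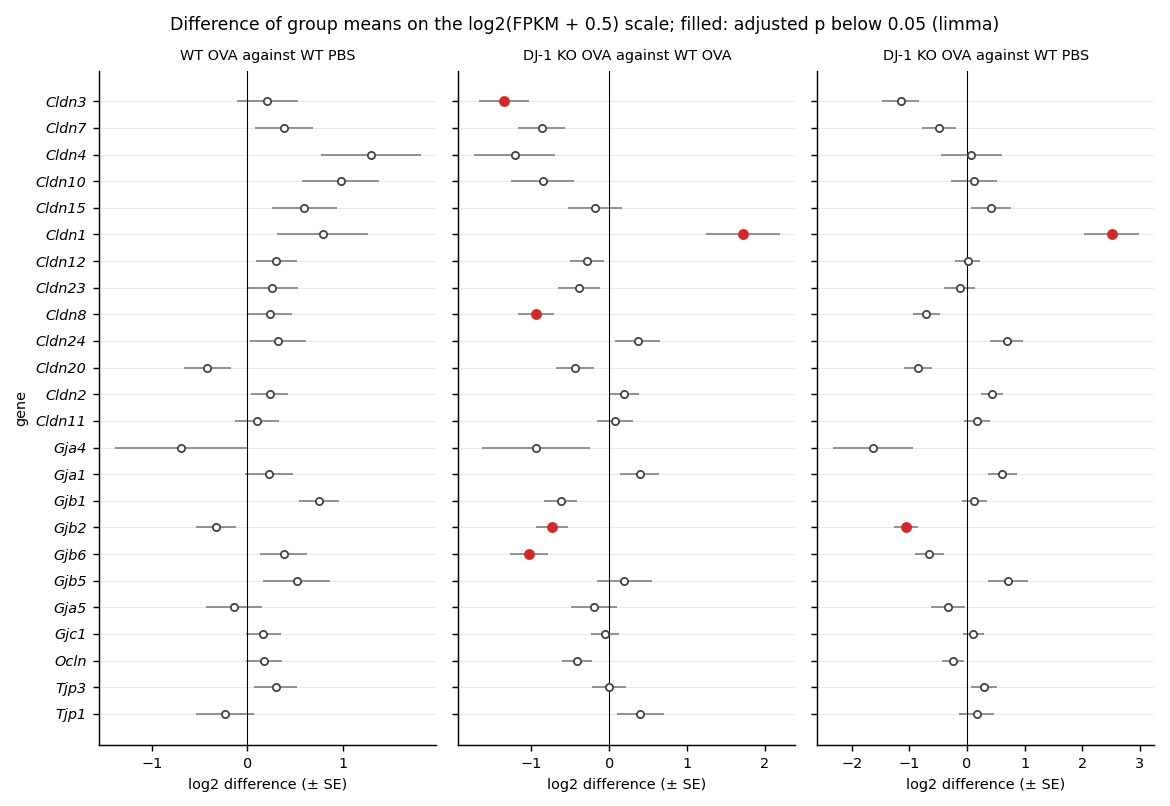
Difference of group means (± SE, 3 libraries a group) on the log2(FPKM + 0.5) scale for 24 of the 28 tested members in the 3 comparisons; filled points have an adjusted p below 0.05 in limma. Filled are Cldn3, Cldn8, Gjb2 and Gjb6 below 0 and Cldn1 above 0 between the ovalbumin groups, and Cldn1 above 0 and Gjb2 below 0 against saline.

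Cldn3, the most abundant member, had the largest difference among the members called lower. Its 3 knockout values of 61.2, 83.1 and 49.7 FPKM all lay below the lowest WT OVA library, at 106, and below the lowest WT PBS library, at 125. The log2 difference from WT OVA was -1.36 ± 0.32 (SE), 2.56-fold lower on that scale, with an adjusted p of 0.0262 in limma. The call was lost without WT OVA replicate 5 (adjusted p 0.0825) or 6 (0.0838), or without knockout library DJ1_KO_OVA_263 (0.0599) or DJ1_KO_OVA_267 (0.110), and with quantile normalization (0.0723) or equal FPKM sums (0.0883). Calls over all genes, 14.2% in the main fit, were 3.09%, 2.53%, 6.76% and 1.61% without these libraries in turn. They were 7.1%, 12.7%, 13.9% and 2.69% without WT PBS replicates 1, 2 and 3 and WT OVA replicate 9, and 32.1% without library DJ1_KO_OVA_266. Quantile normalization gave 13.5% and equal FPKM sums 28.4%. These shares stand beside the calls of every member below. Among the 21 member claudins, Cldn3 made up 68.1% to 73.4% of the summed FPKM in WT PBS. Its share was 60.1% to 65.6% in WT OVA and 42.04% to 55.6% in DJ-1 KO OVA, without overlap of the 3 groups. The sum leaves out Cldn5 and Cldn18, which reached 85.4 and 50.9 FPKM in single libraries. It is therefore not a share of all claudins.

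The neighbours of Cldn3 in function did not pass the test. Cldn7 was at 31.2, 21.4 and 20.8 FPKM in WT PBS, at 32.8, 43.8 and 21.7 in WT OVA and at 14.9, 23.7 and 13.9 in DJ-1 KO OVA, with a difference between the ovalbumin groups of -0.87 ± 0.30 (SE, adjusted p 0.0717 in limma). Cldn4 was at 13.7, 10.4 and 14.2 FPKM in DJ-1 KO OVA, with a difference of -1.22 ± 0.53 (adjusted p 0.128), and the highest knockout library exceeded the lowest WT OVA library, at 14.0. Without library DJ1_KO_OVA_266 Cldn7 passed, with an adjusted p of 0.0216 in limma, in a fit that called 32.1% of all genes. Cldn10 in the knockout libraries was at 7.13, 10.9 and 7.35 FPKM, overlapping WT OVA. Cldn18, the alveolar claudin that is not a member, was at 23.4 to 34.2 FPKM in WT OVA, against 13.3 to 24.9 in DJ-1 KO OVA.

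Cldn8, a tightening claudin best known from kidney and colon, was a low member. It was at 1.25, 1.20 and 0.539 FPKM in WT PBS, at 1.08, 1.45 and 1.12 in WT OVA and at 0.432, 0.306 and 0.451 in DJ-1 KO OVA. The ovalbumin groups did not overlap, and WT PBS replicate 3 lay close to the knockout libraries. The difference between the ovalbumin groups was -0.94 ± 0.23 (SE), 1.91-fold lower on the offset scale, with an adjusted p of 0.0298 in limma. It rested on 17 to 78 reads per library, and the call was lost without any 1 of WT OVA replicates 5, 6 and 9 or knockout libraries DJ1_KO_OVA_263 and DJ1_KO_OVA_267 (adjusted p 0.0593 to 0.0926).

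Cldn1, the claudin that seals the epidermis and is found in airway basal cells, went the other way. It was at 1.54, 1.03 and 1.30 FPKM in WT PBS, at 2.69, 1.97 and 3.14 in WT OVA and at 3.89, 9.46 and 23.1 in DJ-1 KO OVA. The 3 groups did not overlap, and the knockout libraries differed more among themselves than the wild-type libraries did. The log2 difference from WT OVA was 1.72 ± 0.48 (SE), 3.30-fold higher on that scale, with an adjusted p of 0.0408 in limma. The call was lost without any 1 of WT PBS replicates 1 and 2, WT OVA replicates 5, 6 and 9 and knockout library DJ1_KO_OVA_267. Without library DJ1_KO_OVA_267 the difference was 1.11 with an adjusted p of 0.114, and with quantile normalization it was 1.70 with 0.0540. Among the member claudins, which leave out Cldn5 and Cldn18, Cldn1 held 0.578% to 0.760% of the summed FPKM in WT PBS. It held 0.558% to 1.86% in WT OVA, and 3.34%, 6.33% and 19.5% in DJ1_KO_OVA_263, DJ1_KO_OVA_266 and DJ1_KO_OVA_267.

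**Figure D3:**
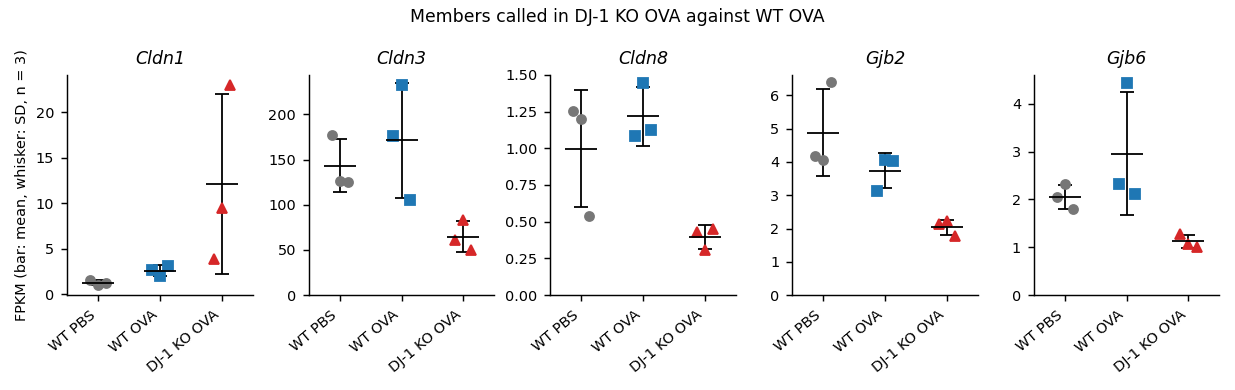
FPKM by group for the 5 members that differed between the ovalbumin groups; points are libraries, bars the mean and whiskers the SD (n = 3). All knockout libraries lie below all WT OVA libraries for Cldn3, Cldn8, Gjb2 and Gjb6 and above them for Cldn1, for which the knockout libraries run from 3.89 to 23.1 FPKM.

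Lists of markers of other cell types were set beside Cldn1. The mean log2 level of 7 monocyte-derived macrophage markers was 4.57, 6.53 and 6.67 in DJ1_KO_OVA_263, DJ1_KO_OVA_266 and DJ1_KO_OVA_267, 3.73 to 4.86 in WT OVA and 3.49 to 4.11 in WT PBS. The 6 goblet cell markers averaged 4.71 to 5.10 in DJ-1 KO OVA, from 2.14 to 4.05 in WT OVA and from 0.55 to 1.20 in WT PBS. The 5 basal cell markers summed to 6.10 to 12.1 FPKM in DJ-1 KO OVA and 3.88 to 9.81 in WT OVA, with overlap. The 8 fibroblast markers averaged 5.16, 4.62 and 5.56 in DJ1_KO_OVA_263, DJ1_KO_OVA_266 and DJ1_KO_OVA_267, all above WT OVA, at 4.06 to 4.09, and WT PBS, at 4.16 to 4.43. No marker of these lists was at 0 in all libraries. Their part in the level of Cldn1 was not tested. In bulk RNA, fewer or more cells of a type and less or more RNA per cell cannot be told apart, here and for every member.

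The same lists were set beside the members that were lower. The 12 epithelial markers averaged 3.64 to 3.88 on the log2 scale in DJ-1 KO OVA, from 3.68 to 4.35 in WT OVA and from 3.63 to 3.87 in WT PBS, with overlap. That average mixes directions: between the ovalbumin groups 4 of these markers differed above 0 and 8 below. Cdh1 was called higher and 3 were called lower, where 5.93% and 8.24% of all genes were. Relative to that mixed average, Cldn3 stood 2.01 to 2.501 higher in DJ-1 KO OVA, from 3.05 to 3.51 higher in WT OVA and from 3.24 to 3.60 higher in WT PBS. The 9 alveolar type 2 markers averaged 7.31 to 8.12 in DJ-1 KO OVA and 8.497 to 8.98 in WT OVA, and the 7 ciliated cell markers 1.84 to 2.75 and 2.90 to 4.08. The 8 alveolar type 1 markers averaged 2.72 to 3.65 in DJ-1 KO OVA, against 3.80 to 4.34 in WT OVA, and the 6 club cell markers 8.27 to 8.36 against 8.75 to 10.23. The cardiomyocyte list averaged -0.32 to 0.24 in DJ-1 KO OVA, against 0.35 to 0.63 in WT OVA, and the Schwann cell list -0.01 to 0.16 against 0.20 to 0.28. In all 6 lists the ovalbumin groups did not overlap. DJ-1 KO OVA did overlap WT PBS in the ciliated list, at 2.10 to 3.12 in WT PBS, and in the cardiomyocyte list, at 0.15 to 0.36. The leukocyte, alveolar macrophage, mesothelial, smooth muscle and pericyte lists and the 3 endothelial lists overlapped between the ovalbumin groups. The part of these cell types in the lower claudins was not tested.

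Gjb2 (Cx26) and Gjb6 (Cx30), neighbours on chromosome 14 and partners in the gap junctions of the inner ear, were both lower. Gjb2 was at 4.18, 4.07 and 6.396 FPKM in WT PBS, at 3.14, 4.06 and 4.01 in WT OVA and at 2.12, 2.22 and 1.78 in DJ-1 KO OVA. The log2 difference between the ovalbumin groups was -0.73 ± 0.21 (SE), 1.66-fold lower, with an adjusted p of 0.0449 in limma. Gjb6 was at 2.05, 2.31 and 1.80 FPKM in WT PBS, at 2.32, 4.44 and 2.11 in WT OVA and at 1.28, 1.08 and 1.01 in DJ-1 KO OVA. Its difference was -1.03 ± 0.25, 2.05-fold lower, with an adjusted p of 0.0275. For both genes all knockout libraries lay below all 6 wild-type libraries.

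The calls of these neighbours depended on single libraries, and so did the share of all genes called, given above with Cldn3. Gjb6 lost its call without WT OVA replicate 5 or 6 or knockout library DJ1_KO_OVA_267 (adjusted p 0.0582 to 0.104), and Gjb2 without any 1 of WT PBS replicate 1, WT OVA replicates 5, 6 and 9 and knockout libraries DJ1_KO_OVA_263 and DJ1_KO_OVA_267 (adjusted p 0.0694 to 0.154) and with a pseudocount of 1 (0.0501). Gja3, the member of the same cluster that belongs to the lens, had 0 reads.

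Of the other connexins, none passed with all libraries. Gjb1 was at 4.12, 4.39 and 2.80 FPKM in the knockout libraries, all below WT OVA, with a difference of -0.62 ± 0.21 (SE, adjusted p 0.0673 in limma). Without library DJ1_KO_OVA_266 Gjb1 passed, with an adjusted p of 0.0315 in limma, in a fit that called 32.1% of all genes. Gjb5, a connexin of skin and trophoblast, was at 1.09 to 3.60 FPKM in WT OVA, against 1.31 to 3.07 in DJ-1 KO OVA. Gja1 (Cx43), the most widespread connexin, was at 4.04 to 4.54 FPKM in WT OVA and at 8.42, 4.29 and 5.30 in the knockout libraries. Gjc1 (Cx45, of smooth muscle and heart) was at 0.354 to 0.488 and 0.392 to 0.415 FPKM.

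The vascular connexins ranked the knockout libraries in the same order as the endothelial markers did. Gja4 (Cx37) was at 7.17, 7.17 and 8.21 FPKM in WT PBS, at 4.98, 2.95 and 5.88 in WT OVA and at 0.379, 10.1 and 1.33 in DJ1_KO_OVA_263, DJ1_KO_OVA_266 and DJ1_KO_OVA_267, so 1 knockout library was above and 2 were below all 6 wild-type libraries. Gja5 (Cx40) was at 0.607, 2.05 and 0.904 FPKM in the same knockout libraries and at 1.10 to 1.87 in the wild-type libraries, with the same order; part of its span overlaps Gpr89 on the opposite strand. Cldn5, the endothelial claudin that is not a member, was at 4.60, 85.4 and 16.9 FPKM there and at 49.1 to 76.8 in the wild-type libraries. The 10 endothelial markers averaged 1.11, 3.02 and 1.93 on the log2 scale in DJ1_KO_OVA_263, DJ1_KO_OVA_266 and DJ1_KO_OVA_267, against 2.76 to 3.34 in wild-type. Gja4 did not pass in any comparison with all libraries. Its difference from WT PBS was -1.64 with an adjusted p of 0.166 in limma, and without library DJ1_KO_OVA_266 it was -2.65 with an adjusted p of 0.00238. That library held the highest Gja4 value. Without it 22% of all genes were called against WT PBS, where 8.54% were with all libraries. The part of endothelial content in these values was not tested.

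**Figure D4:**
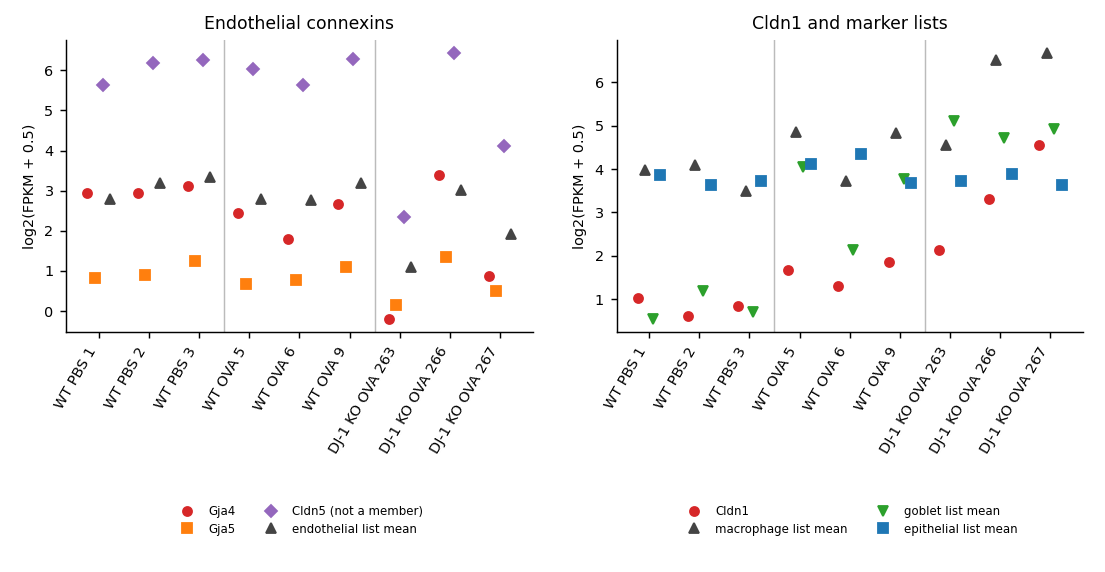
Log2(FPKM + 0.5) in each of the 9 libraries: at left Gja4, Gja5, Cldn5 and the mean of 10 endothelial markers, at right Cldn1 and the means of 7 monocyte-derived macrophage, 6 goblet cell and 12 epithelial markers. At left the knockout libraries DJ1_KO_OVA_263 and DJ1_KO_OVA_267 lie below the others and library DJ1_KO_OVA_266 does not; at right Cldn1 and the macrophage mean are highest in library DJ1_KO_OVA_267.

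None of the strand partners of the claudins passed the test between the ovalbumin groups. Tjp1 was at 3.37 to 6.61 FPKM in WT PBS, from 2.69 to 5.04 in WT OVA and from 3.60 to 6.59 in DJ-1 KO OVA. Tjp3 was at 9.92, 9.14 and 7.31 FPKM in WT PBS, at 11.8, 13.01 and 8.23 in WT OVA and at 9.46, 12.9 and 10.2 in DJ-1 KO OVA. The knockout libraries of both genes overlapped the WT PBS libraries. Ocln was at 3.44 to 5.16 FPKM in WT OVA, against 2.77 to 2.97 in DJ-1 KO OVA, without overlap and without passing. Tjp3 shares part of its span with Apba3 on the opposite strand, at a mean of 9.97 FPKM, and since the sources used here do not say whether counting used strand, reads of these genes cannot be told apart there.

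The pore-forming claudins and the minor ones did not pass either. Cldn15, which forms sodium pores in the gut, was at 5.55, 3.21 and 8.26 FPKM in WT PBS, at 9.74, 7.29 and 7.995 in WT OVA and at 10.3, 7.93 and 4.56 in DJ-1 KO OVA. Cldn2, a cation and water pore of leaky epithelia, had means of 0.123, 0.234 and 0.342 FPKM in WT PBS, WT OVA and DJ-1 KO OVA. Cldn12 was at 1.29 to 2.67 FPKM and Cldn23 at 1.17 to 3.38 FPKM over all 9 libraries. Cldn11, Cldn20 and Cldn24 stayed below 1 FPKM in every library, with 1 to 20 reads each, and Cldn20 lies within the span of Tfb1m, transcribed from the opposite strand. Across the 28 tested members, 2 lay wholly above WT OVA in the knockout libraries, among them Cldn1, and 6 wholly below (Cldn3, Cldn8, Gjb1, Gjb2, Gjb6 and Ocln), where 18.4% and 18.8% of all genes did.

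Gene length moved with this comparison, as it did with the others. Over all tested genes the median log2 difference between the ovalbumin groups was -0.37 in the shortest class (up to 2228 bases), -0.03 in the middle class and 0.31 in the longest (from 4895 bases). The 13 members of the shortest class had a median of -0.44, the 10 of the middle class -0.35 and the 5 of the longest 0.36. Cldn3 is 1259 bases long, and Cldn1 4841. As an alternative chosen after seeing the data, the trend on length of each library's deviation from the gene mean was subtracted before the fit. No member was then called: Gjb6 was at -0.88 (adjusted p 0.0512), Cldn1 at 1.60 (0.0570), Cldn8 at -0.72 (0.0667), Cldn3 at -0.94 (0.0741) and Gjb2 at -0.53 (0.133) in limma. With equal FPKM sums Cldn1 alone was called. The part of length in the calls was not otherwise tested.

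**Figure D5:**
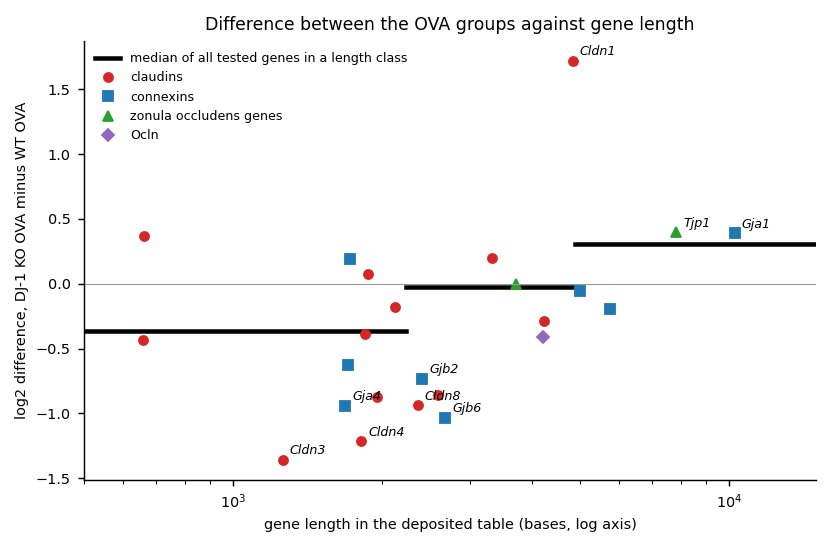
Log2 difference between DJ-1 KO OVA and WT OVA against gene length in bases (log axis) for 24 of the 28 tested members, by family; bars are the medians of all tested genes in 3 length classes. The medians rise from -0.37 to 0.31 with length, with Cldn3 lowest and Cldn1 highest among the members.

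DJ-1 KO OVA was last set against WT PBS, a comparison in which genotype and challenge both differ and cannot be told apart. It shares the knockout libraries with the previous comparison. Cldn1 was higher, by 2.51 ± 0.48 (SE) on the log2 scale or 5.69-fold, with an adjusted p of 0.0132 in limma, and Gjb2 was lower, at -1.06 ± 0.21 or 2.08-fold, with an adjusted p of 0.0156. These were 1 of 28 members higher, against 4.07% of all genes, and 1 lower, against 4.47%, or 2 in either direction, against 8.54%. At an unadjusted p below 0.05 there were 12 of 28 members, against 26.4% of all genes. Cldn1 lost its call without WT PBS replicate 2 (adjusted p 0.0615), and Gjb2 without knockout library DJ1_KO_OVA_267 (0.0666) or with equal FPKM sums (0.123). The median over members was 0.09 against 0.00 for all genes, and 0.26 against 0.24 with equal FPKM sums. By length, the median over all genes was -0.22 in the shortest class, -0.03 in the middle class and 0.19 in the longest. With the length trend removed Cldn1 and Gjb2 were still called.

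Others came near the threshold against saline. Cldn3 was at -1.15 ± 0.32 (SE) with an adjusted p of 0.0512 in limma, and at -1.16 with 0.0309 in limma-voom. Cldn20, at 0.692 ± 0.265 FPKM (SD) in WT PBS and 0.149 ± 0.0375 in DJ-1 KO OVA, had an adjusted p of 0.0563. Cldn8 was at a difference of -0.70 (0.0867), Gjb6 at -0.65 (0.128) and Gja1 at 0.61 (0.156). In this comparison 5 members lay wholly above WT PBS, among them Cldn1, Cldn2, Cldn24 and Gjb5, and 7 wholly below, among them Cldn3, Cldn8, Cldn20, Gjb2, Gjb6 and Ocln, where 12.7% and 12.9% of all genes did.

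Other genes of the junctional belt were read from a list of 50 junction, polarity and adhesion genes, of which 43 were tested. Between the ovalbumin groups 2 were called higher and 3 lower, or 5 of 43 against 14.2% of all genes. Cdh1, E-cadherin of the adherens junction, was higher at 50.9, 53.3 and 84.3 FPKM in DJ-1 KO OVA against 26.5, 39.8 and 23.6 in WT OVA (difference 1.05, adjusted p 0.0361 in limma), and so was Ctnnb1, the beta-catenin that binds its tail (0.81, adjusted p 0.0471). Crb3, an apical polarity protein, was lower at 9.86, 15.5 and 7.53 FPKM against 30.7, 32.5 and 22.9 (-1.39, adjusted p 0.0140). Lsr, which marks tricellular junctions, and F11r, the junctional adhesion molecule JAM-A, were also lower (-0.90 and -0.65, adjusted p 0.0338 and 0.0408). Cdh1 and Ctnnb1, at 4574 and 5192 bases, are longer than Crb3, Lsr and F11r, at 1564, 2172 and 2663, and with the length trend removed Crb3 and Cdh1 were still called (adjusted p 0.0218 and 0.0429) while the other 3 were not. Crb3 lost its call without WT OVA replicate 5 or 6 or knockout library DJ1_KO_OVA_267, with adjusted p up to 0.0612. The other 4 lost theirs without any 1 of WT OVA replicates 5, 6 and 9 and knockout library DJ1_KO_OVA_267, with adjusted p up to 0.168. Cdh1, Ctnnb1 and F11r also lost it without WT PBS replicate 1, and Ctnnb1 without WT PBS replicate 2. Ctnnb1, F11r and Lsr lost it without knockout library DJ1_KO_OVA_263 as well. Against WT PBS, Cdh1 was higher (1.08, adjusted p 0.0398 in limma) and Lsr and Crb3 were lower (-0.92 and -0.99, adjusted p 0.0367 and 0.0434). These were 1 of 43 higher and 2 lower, where 4.07% and 4.47% of all genes were called. With each of the 9 libraries left out in turn, Cdh1 kept its call in 3 fits, and Lsr and Crb3 in 1 each. All of them lost it with no filter and with only the 2 groups compared. Between the wild-type groups none of the 43 was called, and none had an unadjusted p below 0.05.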

How the data were processed

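RNA of lung cells was measured in 9 libraries prepared from total RNA with an Illumina TruSeq kit, per the labels' protocols. The submitters' processing notes name Trimmomatic, HISAT2, HTSeq and GRCm38.p6, with versions, roles and use of strand not given in the sources used here. The deposited values are FPKM for 55851 genes, per the file headers. FPKM multiplied by length gave whole reads (tolerance 0.01) for 100% of values.

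Values were tested as log2(FPKM + 0.5) for 17716 genes with a mean of at least 0.2 FPKM, in 1 limma-trend fit (limma 3.58.1, R 4.3.3) over the 3 groups, with 6 residual degrees of freedom, two-sided, adjusted over all genes by Benjamini-Hochberg and called below 0.05. The offset understates changes of low genes.

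The members and lists were chosen with earlier results of these data known. Members past the filter were named, except that values of some members are not reported here although they stay in the counts, with values per library for those called or at a mean of at least 5 FPKM, and all other junction genes called. Alternatives changed the pseudocount, filter, scaling, test (limma-voom on recovered reads), groups fitted, libraries and length trend. The marker lists hold canonical genes of 18 cell types.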

Additional observations from a re-analysis of the deposited data

How the results depend on the processing

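Differences of single genes were followed under the alternatives for members with an unadjusted p below 0.05, other junction genes that were called, and Park7. None of these changed sign. The signs of the remaining members were not followed, and the members' median between the ovalbumin groups went from -0.24 to 0.21 with equal FPKM sums. Between the ovalbumin groups, the count of 1 member called higher became 0 with no filter, with quantile normalization, with only the 2 groups compared and with the length trend removed, and was 0 to 1 when each library was left out in turn. The count of 4 members called lower became 0 with no filter, with equal FPKM sums and with the length trend removed, 1 (Cldn8) with only the 2 groups compared, and 3 with quantile normalization (without Cldn3), and with a pseudocount of 1 it lost Gjb2; it was 0 to 7 when each library was left out, with 0 without WT OVA replicate 5 or 6 or knockout library DJ1_KO_OVA_267 and 7 without library DJ1_KO_OVA_266. The 5 other junction genes became 1 with no filter or with only the 2 groups compared, 9 with equal FPKM sums, and 0 to 9 with a library left out. Against WT PBS, the 1 member called higher became 0 with no filter and 0 to 3 with a library left out. The 1 called lower became 3 with a pseudocount of 0.1, 2 with a mean of at least 1 FPKM, 0 with equal FPKM sums, 2 in limma-voom, and 0 to 4 with a library left out. The 3 other junction genes became 0 with no filter or with only the 2 groups compared, 1 with equal FPKM sums, and 0 to 8 with a library left out. The counts of 0 between the wild-type groups held under all alternatives. No filter tests 30389 genes, and fewer libraries leave fewer degrees of freedom. Calls over all genes moved too. Between the ovalbumin groups they were 14.2% of genes in the main fit, 2.12% with no filter and 6.38% with only the 2 groups compared. They were 3.09%, 2.53% and 1.61% without WT OVA replicate 5, WT OVA replicate 6 and library DJ1_KO_OVA_267, and 32.1% without library DJ1_KO_OVA_266. Against WT PBS they were 8.54% in the main fit and 2.46% to 22% with a library left out. The cause of the other changes was not tested. Over all genes, equal FPKM sums moved the share of calls that were higher between the ovalbumin groups from 41.9% of 2510 to 88.2% of 5029, and against WT PBS from 47.7% of 1513 to 69.2% of 1396. No paired analysis was possible because the groups share no replicate numbers.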
